A study of Mus musculus with 12 samples.

Results

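The 10 genes described here mark T cells in bulk RNA from mouse tumours. They are Cd3d, Cd3e, Cd3g, Cd4, Cd8a, Cd8b1, Cd2, Cd5, Lck and Thy1, taken by their gene names from 53801 genes in the deposited table, with no filter on expression. RNA was measured in 12 flank tumours that grew from LLC cells (Lewis lung carcinoma), which arose in C57BL/6 mice and were transplanted here into the same strain, so that the tumours also hold host cells, T cells among them. The hosts were female C57BL/6 mice aged 6 to 8 weeks, 6 in a group, and LLC cells in Matrigel, a basement membrane gel, were injected into both flanks. Each of 4 groups is represented by 3 tumours: vehicle (tumours 2, 3 and 5), cisplatin alone (1, 2 and 3), brivanib alone (2, 3 and 5), and cisplatin with brivanib, called the combination (2, 3 and 4). Cisplatin cross-links DNA, and brivanib inhibits the VEGF and FGF receptor kinases. Drugs went into the peritoneum in 100 µL, 2 times per week for 4 weeks, once tumour volume had reached 100 mm3. The sources used here state no dose. A mouse carried up to one tumour per flank and the labels do not say which tumours came from the same mouse, so the p-values below measure only the spread between these tumours.

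A T cell recognises antigen through its receptor, whose alpha and beta chains bind the target but cannot signal alone. The CD3 gamma, delta and epsilon chains, encoded by Cd3g, Cd3d and Cd3e, assemble with the receptor, carry it to the surface and pass the signal inwards. CD4 and CD8 are coreceptors that bind MHC class II and class I, and they bring the kinase Lck, which phosphorylates the CD3 chains. CD2 is an adhesion and costimulatory receptor, CD5 dampens receptor signalling, and Thy1 is a small surface glycoprotein used as a T cell marker in the mouse. Several of these genes are also active outside conventional T cells: Thy1 in fibroblasts and neurons, Cd2 and Lck in NK cells, Cd5 in some B cells, and Cd4 and Cd8a in some mouse dendritic cells. In bulk tumour RNA, fewer cells of a type and less RNA per cell cannot be told apart.

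The set includes neighbouring genes. In the coordinates of the deposited transcripts, which match a GRCm38 annotation, Cd3g (chr9:44969572-44980431, minus strand) lies 1354 bases from Cd3d (chr9:44981786-44987339, plus strand), and Cd3d lies 11400 bases from Cd3e (chr9:44998740-45009627, minus strand). Cd8b1 (chr6:71322788-71337494) and Cd8a (chr6:71373427-71379173) stand 35932 bases apart on the plus strand. The others are Cd4 (chr6:124864692-124888221, minus), Cd2 (chr3:101275899-101287939, minus), Cd5 (chr19:10718143-10738974, minus), Lck (chr4:129548344-129573641, minus) and Thy1 (chr9:44043384-44048579, plus).

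Promoter windows from RefSeq (build GRCm38.p6), 250 bases before to 50 after a gene's start, were found for 6 of the 10 genes, with 7 windows because Lck has 2. Both Lck windows are printed because the transcripts from its start sites had different levels across tumours, and that of Cd3e is printed as a CD3 chain to set beside them. Each runs 5′ to 3′ on the gene's strand, and capitals mark matches, on either strand, to the 5 motifs of transcription factors spelled out after the sequences.
Lck distal start, chr4:129573592-129573891, minus strand: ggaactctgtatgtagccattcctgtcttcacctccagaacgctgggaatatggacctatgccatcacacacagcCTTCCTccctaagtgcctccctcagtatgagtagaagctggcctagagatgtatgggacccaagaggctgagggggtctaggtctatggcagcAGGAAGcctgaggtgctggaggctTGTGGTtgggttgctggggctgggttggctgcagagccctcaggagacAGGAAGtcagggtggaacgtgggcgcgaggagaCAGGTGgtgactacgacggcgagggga
Lck proximal start, chr4:129558323-129558622, minus strand: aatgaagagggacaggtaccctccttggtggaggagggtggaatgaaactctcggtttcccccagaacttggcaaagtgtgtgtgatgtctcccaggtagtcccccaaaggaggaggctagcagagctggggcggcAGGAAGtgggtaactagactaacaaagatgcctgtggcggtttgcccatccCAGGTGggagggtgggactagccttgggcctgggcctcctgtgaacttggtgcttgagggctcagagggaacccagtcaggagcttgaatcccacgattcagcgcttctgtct
Cd3e, chr9:45009562-45009861, minus strand: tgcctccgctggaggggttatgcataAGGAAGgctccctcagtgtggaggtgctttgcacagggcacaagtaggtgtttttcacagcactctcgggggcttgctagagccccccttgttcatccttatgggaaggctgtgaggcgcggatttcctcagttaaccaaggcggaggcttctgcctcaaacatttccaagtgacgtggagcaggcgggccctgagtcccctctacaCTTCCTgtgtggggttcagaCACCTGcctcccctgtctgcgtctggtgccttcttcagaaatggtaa
The core that RUNX factors bind, TGTGGT, was found in 1 of the 7 windows, that of the distal Lck start, against 16.8% of 32851 mouse windows of this length. The ETS factor core, searched as AGGAAG, was present in 5 of the 7 windows against 35.4% of all of them. An E box, searched as CACCTG, was in 6 windows against 20.2%. The GATA factor core, searched as AGATAA, was in 1 window (Cd3g) against 11.2%. The TCF/LEF factor core, searched as CTTTGA, was in 1 window (Cd3d) against 16%. No matches overlapped in the windows of these genes, and they describe letters only.

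Levels are gene FPKM (fragments normalised to transcript length and sequencing depth) summed over each gene's transcripts, and they are listed in the order of the tumour numbers given above. The libraries hold 17160875 to 30942897 recovered fragments. Brivanib tumour 5 stands apart, since 38.17% of its fragments lie in ribosomal RNA genes against 0.314 to 0.69% in the other libraries. Thy1 stood far above the rest of the set. Its mean over the 12 tumours was 32.9 FPKM, which is 81.44% of the summed mean level of the 10 genes and 17.0 times that of the next gene, Lck, at 1.94 FPKM. The other 8 ranged from 0.112 FPKM for Cd5 to 1.58 FPKM for Cd3g, and Cd5 rested on 61 fragments in all. Every one of the 10 had a mean of at least 0.1 FPKM and entered the test.

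**Figure D1:**
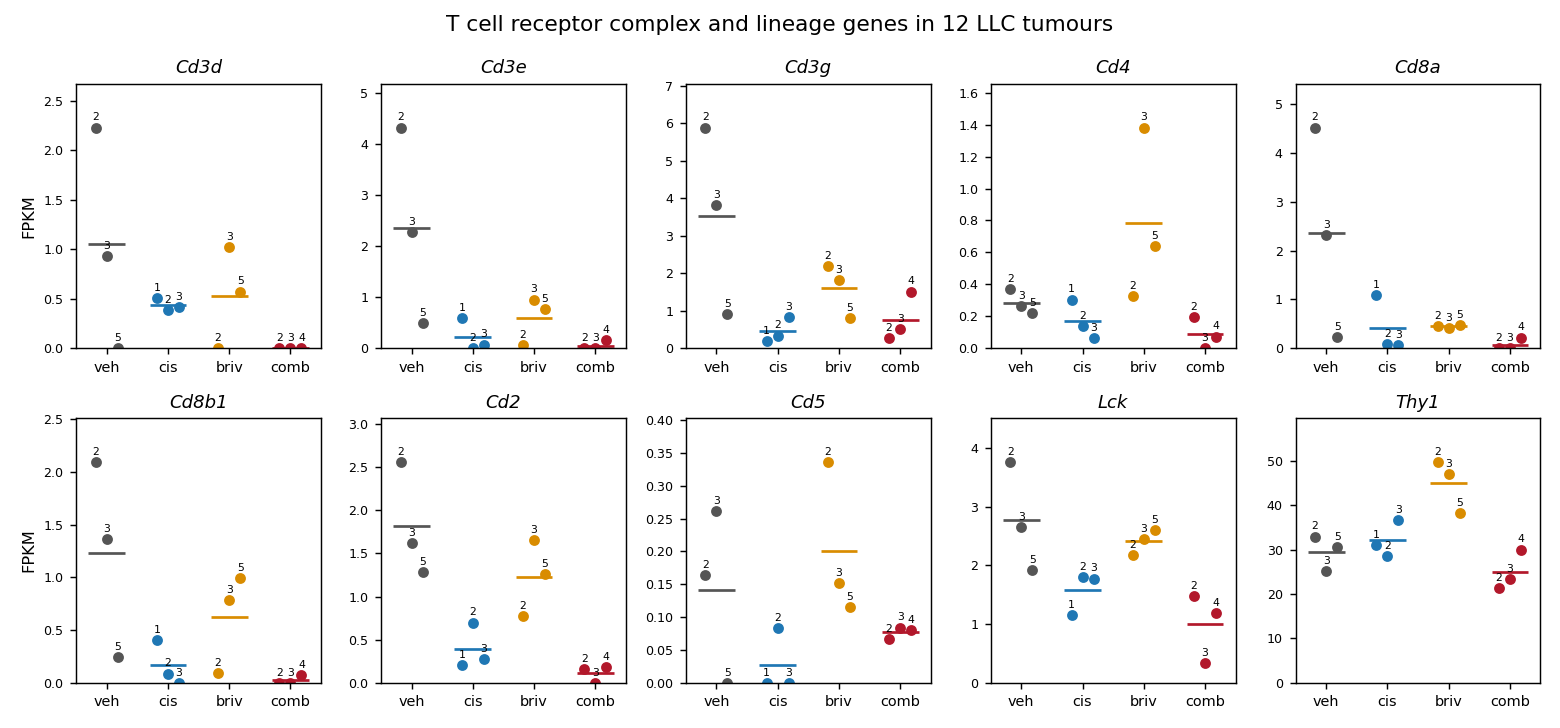
FPKM of each gene (vertical axes, linear, own scale per gene) in vehicle (veh), cisplatin (cis), brivanib (briv) and combination (comb) tumours. Points are single tumours marked with their number and lines are means of 3. Vehicle tumour 2 is the highest of the 12 for 7 genes, and Cd3d is at 0 in all 3 combination tumours.

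Cd3e and Cd3g were highest in vehicle tumours 2 and 3, and Cd3d in vehicle tumour 2 and brivanib tumour 3. Cd3e was at 4.33, 2.28 and 0.486 FPKM in the vehicle tumours, at 0.592, 0 and 0.0666 with cisplatin, at 0.0633, 0.953 and 0.762 with brivanib, and at 0, 0 and 0.152 with the combination. In gene FPKM all 3 combination tumours lay below all 3 vehicle tumours, whereas the groups given one drug overlapped the vehicle group through vehicle tumour 5 (cisplatin tumour 1, and brivanib tumours 3 and 5, lay above it). The 5 Cd3e fragments of cisplatin tumour 1 all lay in a transcript of 394 bases annotated as a retained intron. On the coding transcript (ENSMUST00000102832) the fragments were 99, 40 and 4 with vehicle, and 0, 0 and 2 with cisplatin. There they were 2, 17 and 16 with brivanib and 0, 0 and 4 with the combination. By these counts the cisplatin tumours lay below vehicle tumour 5, and combination tumour 4 did not. Cd3g was at 5.88, 3.80 and 0.906 FPKM with vehicle, at 0.192, 0.335 and 0.829 with cisplatin, at 2.18, 1.81 and 0.791 with brivanib, and at 0.269, 0.510 and 1.51 with the combination. For Cd3g the cisplatin tumours did not overlap the vehicle tumours, and combination tumour 4 did. Cd3d was at 2.23, 0.931 and 0 FPKM with vehicle, at 0.502, 0.382 and 0.416 with cisplatin, at 0, 1.02 and 0.571 with brivanib, and at 0 in each combination tumour. In the combination group no Cd3d fragment was recovered, and 3 fragments, the limit that a count of 0 allows, would be 0.0807 to 0.103 FPKM per library. With that floor of 3 fragments set over the group, Cd3d was at least 33.8-fold lower than in the vehicle group (105 fragments), at least 13.8-fold lower than in the brivanib group (43 fragments) and at least 8.97-fold lower than in the cisplatin group (28 fragments). These bounds cover counting error only, and vehicle tumour 5 and brivanib tumour 2 were at 0 as well.

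The coreceptor genes differed in their order over the groups. Cd8a was at 4.52, 2.31 and 0.233 FPKM with vehicle, at 1.08, 0.0822 and 0.0623 with cisplatin, at 0.446, 0.415 and 0.473 with brivanib, and at 0, 0 and 0.213 with the combination. Cd8b1, the CD8 beta chain, was at 2.09, 1.37 and 0.246 FPKM, then 0.409, 0.0867 and 0, then 0.0936, 0.784 and 0.994, then 0, 0 and 0.0749. In gene FPKM both CD8 chains had the combination tumours below every vehicle tumour and below every brivanib tumour. Some margins were of few fragments. Cd8a had 12 in combination tumour 4 and 14 in vehicle tumour 5, and Cd8b1 had 2 in combination tumour 4 and 3 in brivanib tumour 2. In brivanib tumour 2, 13 Cd8a fragments lay in a retained-intron transcript and 3 and 6 in the coding transcripts. On coding transcripts combination tumour 4, with 12, was not below it. Cd4 was at 0.369, 0.261 and 0.218 FPKM with vehicle, at 0.305, 0.138 and 0.0627 with cisplatin, at 0.328, 1.38 and 0.639 with brivanib, and at 0.192, 0 and 0.0715 with the combination. Its highest level was in brivanib tumour 3, with 80 of the 237 Cd4 fragments of the series, and the group mean was highest with brivanib (0.783 ± 0.542 FPKM, SD, n = 3) against 0.283 ± 0.0778 with vehicle. The ratio of Cd8a to Cd4 FPKM was 12.2, 8.85 and 1.07 in the vehicle tumours, 3.56, 0.597 and 0.994 with cisplatin, and 1.36, 0.3 and 0.741 with brivanib. In the combination tumours it was 0 and 2.98 in tumours 2 and 4, with neither gene detected in tumour 3. In gene FPKM vehicle tumours 2 and 3 thus had more Cd8a for their Cd4 than every other tumour with a ratio, and vehicle tumour 5 did not. Of the 126 Cd8a fragments of vehicle tumour 3, 57 lay in a retained-intron transcript. On coding transcripts it had 69 Cd8a and 18 Cd4 fragments, and cisplatin tumour 1 had 71 and 17. By these counts vehicle tumour 3 did not stand above cisplatin tumour 1. Few fragments underlie some ratios, with 4 of Cd4 in combination tumour 4.

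Cd2 and Lck, a receptor and a kinase at the cell membrane, separated the tumours with and without cisplatin. Cd2 was at 2.55, 1.62 and 1.28 FPKM in the vehicle tumours, at 0.202, 0.697 and 0.278 with cisplatin, at 0.773, 1.66 and 1.26 with brivanib, and at 0.159, 0 and 0.181 with the combination. Every tumour given cisplatin, alone or in the combination, lay below every tumour that was not. The margin was narrow between cisplatin tumour 2, with 18 Cd2 fragments, and brivanib tumour 2, with 17. On the coding transcript (ENSMUST00000029456) each of these had 14. Lck was at 3.75, 2.65 and 1.92 FPKM with vehicle, at 1.15, 1.80 and 1.78 with cisplatin, at 2.18, 2.45 and 2.60 with brivanib, and at 1.47, 0.334 and 1.19 with the combination, again with no overlap between tumours with and without cisplatin. Cd5 was at 0.164, 0.261 and 0 FPKM, then 0, 0.0828 and 0, then 0.336, 0.151 and 0.115, then 0.0665, 0.0841 and 0.0805. No Cd5 value stood on more than 15 fragments, so differences between most of these tumours were not detectable at this depth. Thy1 was at 32.9, 25.2 and 30.6 FPKM with vehicle, at 31.1, 28.5 and 36.7 with cisplatin, at 49.7, 47.0 and 38.3 with brivanib, and at 21.3, 23.4 and 30.0 with the combination. Its brivanib tumours were above all 9 others, which no other gene of the set showed.

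Over the groups, the vehicle mean was the highest for 7 genes and the brivanib mean for Cd4, Cd5 and Thy1. The combination mean was the lowest for 8 genes and the cisplatin mean for Cd3g and Cd5. Summed over the 9 genes without Thy1, the level was 25.9, 15.5 and 5.29 FPKM in the vehicle tumours, 4.44, 3.60 and 3.49 with cisplatin, 6.40, 10.6 and 8.20 with brivanib, and 2.16, 0.928 and 3.48 with the combination. Combination tumour 3 was at 0 for 6 genes. Vehicle tumour 5 stood closer to the treated tumours than to vehicle tumours 2 and 3.

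Lck has transcripts from 2 start sites 15250 bases apart. In the mouse the proximal promoter is known for activity in thymocytes and the distal promoter for activity in mature T cells. These transcripts were picked after their values were seen and are described without a test. The distal transcript (ENSMUST00000102596) was at 1.53, 1.34 and 0 FPKM with vehicle, at 0.0884, 0 and 0 with cisplatin, at 0, 1.63 and 1.04 with brivanib, and at 0.0652, 0 and 0.184 with the combination. It was above 1 FPKM in 4 tumours, vehicle 2 and 3 and brivanib 3 and 5, and these were also the 4 tumours with the highest Cd3e. The proximal transcript (ENSMUST00000067240) was at 1.63, 0.412 and 0.810 FPKM with vehicle, at 0.47, 0.392 and 0.602 with cisplatin, at 0.868, 0.369 and 1.15 with brivanib, and at 0.378, 0.120 and 0.763 with the combination, so it was detected in all 12 tumours. Both together hold 83.5% of the 777 Lck fragments, and less in some tumours. In cisplatin tumour 2 they hold 0 and 20 of 41 fragments, and the rest lie in retained-intron transcripts of 450 to 779 bases. The proximal 0.392 FPKM stands there against 1.80 for the gene, and 0.602 against 1.78 in cisplatin tumour 3. On these 2 transcripts together, combination tumour 4 was not below vehicle tumour 5, unlike at the gene level. The division of shared fragments between transcripts is an RSEM estimate. The thymocyte genes Rag1, Rag2, Dntt and Ptcra summed to at most 0.453 FPKM in any tumour.

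**Figure D2:**
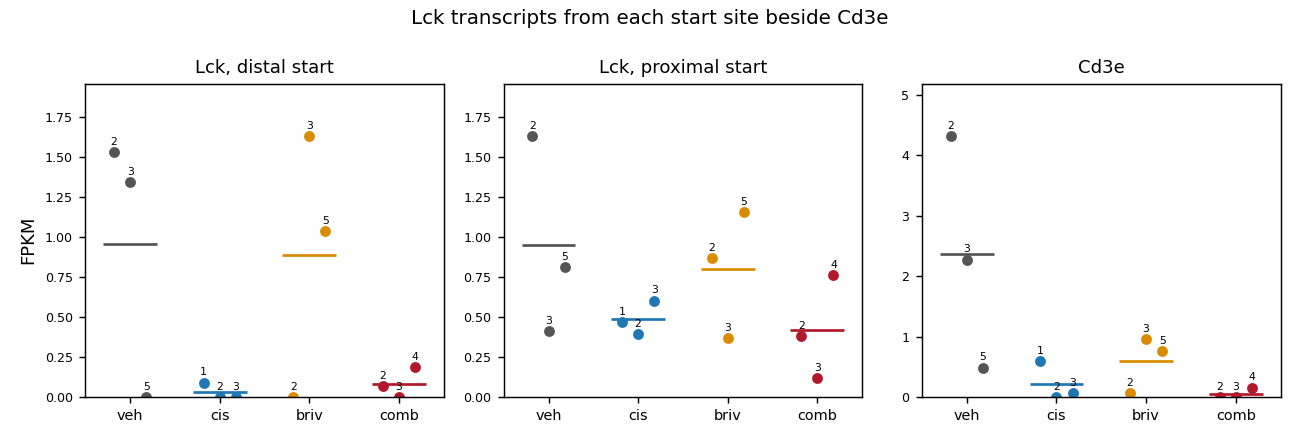
FPKM of the Lck transcript from the distal start, of that from the proximal start (same vertical scale) and of Cd3e (own scale), by group, with tumour numbers and lines for means of 3. The distal transcript is above 1 FPKM in vehicle tumours 2 and 3 and brivanib tumours 3 and 5, and at most 0.184 FPKM in the other 8.

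Whether tumours given cisplatin differed from those that were not was asked over 6 tumours against 6, as the average of the cisplatin effect without and with brivanib. Cd2 fell. Its lowest, median and highest levels were 0, 0.192 and 0.697 FPKM with cisplatin and 0.773, 1.45 and 2.55 FPKM without, a log2 fold change of -0.997 ± 0.15 (SE) on the log2(FPKM + 1) scale with an adjusted p of 0.00793 (limma, Benjamini-Hochberg over 21688 genes, two-sided). This scale understates the change of genes with low FPKM, here and in every fold change below: voom on the recovered fragments gave -2.99 for Cd2 (adjusted p = 0.0153). Lck did not pass the threshold of 0.05 (-0.67 ± 0.17, adjusted p = 0.0558), although its groups did not overlap either, at 0.334, 1.33 and 1.80 FPKM with cisplatin against 1.92, 2.53 and 3.75 FPKM without. So 1 of the 10 genes was called, beside 4.05% of all genes tested in either direction and 1.17% as lower. Groups without overlap, lower with cisplatin, were seen for 2 of 10 beside 0.59% of all genes. All 10 fold changes lay below 0, beside 45.8% of all genes, 8 had an unadjusted p under 0.05 as lower beside 7.84%, and the median was -0.71 on the log2 scale beside 0.015 for all genes. Without vehicle tumour 5 the number called was 5, with Cd3e, Cd3g, Cd8a and Cd8b1 added to Cd2, beside 126 of all 21688 genes as lower and 326 as higher. Without brivanib tumour 2 the number called was 3, with Cd4 and Cd8b1 added, beside 294 of all genes as lower and 594 as higher.

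Hemoglobin and other erythroid genes moved with the same contrast. All 5 of the erythroid list (Hbb-bs, Hbb-bt, Hba-a1, Hba-a2 and Alas2, the haem synthesis enzyme of red cell precursors) fell, and their summed level was 4.44 to 99.6 FPKM with cisplatin and 4.54 to 16.5 with the combination, against 1607 to 3085 with vehicle and 449 to 2939 with brivanib. They also fell in cisplatin against vehicle, in combination against vehicle and in combination against brivanib, 5 of 5 each time. Their part in the results for Cd2 was not tested. The fibroblast genes Dcn (-1.06 ± 0.13, adjusted p = 0.00521 by limma), a proteoglycan of the matrix, and Pi16 (-1.31 ± 0.20, adjusted p = 0.00879), a peptidase inhibitor, fell as well in this average. Pi16 was lower only with brivanib present (-3.02 ± 0.28 in combination against brivanib), and lay above 0 without passing in cisplatin against vehicle (0.39 ± 0.28). Itgax, the integrin CD11c of dendritic cells, also fell (-0.65 ± 0.12, adjusted p = 0.0175). Other genes of the dendritic cell list lay above 0 without passing, namely Clec9a (0.66 ± 0.175, adjusted p = 0.0616 by limma), Zbtb46 (0.16) and Siglech (0.09). The median of that list was -0.13. The pan-leukocyte genes Ptprc, Laptm5 and Coro1a did not pass in this contrast, and their summed level overlapped, at 43.0 to 70.0 FPKM over both cisplatin-treated groups and 47.6 to 80.8 over the others. Some other lists had medians near the -0.71 of the 10 genes, namely skeletal muscle (-0.78), fibroblast (-0.73) and macrophage (-0.61). The median was -0.21 for the pan-leukocyte list, -0.28 for the endothelial list, -0.015 for the NK and cytotoxic list and 0.465 for the adipocyte list. Whether the 10 genes differed from these lists was not tested.

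In cisplatin against vehicle no gene of the set passed, and 0.083% of all genes did. Cd2 had the smallest p (-1.01 ± 0.21, adjusted p = 0.112 by limma), with means of 0.392 ± 0.267 and 1.82 ± 0.658 FPKM (SD, n = 3). At an unadjusted p under 0.05, 5 of 10 were lower beside 3.62% of all genes, and voom on recovered fragments also called 0. Fold changes were below 0 for 9 of 10, beside 42.4% of all genes, with a median of -0.70 beside 0.038, and Thy1 was the exception (0.12 ± 0.15). Cd3d turned to 0.04 without vehicle tumour 2. Cd3g, Cd2 and Lck had cisplatin tumours below every vehicle tumour, 3 of 10 beside 6.48% of all genes.

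In brivanib against vehicle no gene of the set passed either, beside 2.12% of all genes. Thy1 was the nearest, with 45.0 ± 5.93 FPKM against 29.6 ± 3.98 (SD, n = 3), its log2 fold change being 0.59 ± 0.15 and an adjusted p of 0.0923 by limma. With equal FPKM totals, which shift the median of all genes to -0.24, it was 0.23. It was the 1 gene of 10 with brivanib tumours above every vehicle tumour, beside 9.72% of all genes. Unadjusted p-values were under 0.05 for Thy1 and Cd4 as higher, beside 8.55% of all genes, and for Cd3e and Cd8a as lower, beside 3.68%, and voom called 0. Cd8a passed only without vehicle tumour 5 (-1.57, adjusted p = 0.0357), and without vehicle tumour 2 the fold change of Cd3d turned from -0.32 to 0.08. The median of the 10 was -0.33 beside 0.006. Genes of other cell lists were higher with brivanib. Macrophage genes summed to 321 to 401 FPKM against 104 to 201 with vehicle, with Cd68, a lysosomal protein of macrophages, past the threshold (1.30 ± 0.27, adjusted p = 0.0343 by limma). Fibroblast genes summed to 858 to 1213 FPKM against 319 to 518, and collagen I genes Col1a1 (4.85 ± 0.85, adjusted p = 0.0139) and Col1a2 (4.61 ± 0.82, adjusted p = 0.0141) and Pi16 (3.33 ± 0.28, adjusted p = 0.000371) rose. The other 4 fibroblast genes (Pdgfra, Dcn, Lum and Dpt) did not pass, and the median of the 7 was 0.13. Laptm5 of the pan-leukocyte list also rose (0.78 ± 0.16, adjusted p = 0.0312). What part these cells had in the Thy1 level was not tested.

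The combination was compared with vehicle and with each drug alone, and these comparisons share tumours with each other and with those above. Against vehicle, Cd2 was lower, at 0.113 ± 0.0987 FPKM against 1.82 ± 0.658 (SD, n = 3), and its log2 fold change was -1.32 ± 0.21 with an adjusted p of 0.022 by limma. That is 1 of 10 beside 1.2% of all genes in either direction and 0.249% as lower. The call for Cd2 was lost without vehicle tumour 2 (adjusted p = 0.0823), vehicle tumour 3 (0.0757), combination tumour 2 (0.0754) or combination tumour 3 (0.0837). Without vehicle tumour 5 the genes called were Cd2, Cd3e and Cd8a, beside 28 of all 21688 genes as lower and 53 as higher. The values that follow are from all 12 tumours. All 10 fold changes were below 0 beside 44.3% of all genes, 7 at an unadjusted p under 0.05 beside 5.5%. In gene FPKM Cd3e, Cd4, Cd8a, Cd8b1, Cd2 and Lck had every combination tumour below every vehicle tumour, 6 of 10 beside 8.29%. For Cd4 this stood on 13 fragments in combination tumour 2 and 13 in vehicle tumour 5, and for Cd8a on 12 in combination tumour 4 and 14 in vehicle tumour 5. The median log2 fold change was -0.98, or -1.13 with Cd3d at its bound, beside 0.025 for all genes. Dcn of the fibroblast list fell here too (-1.17 ± 0.19, adjusted p = 0.0236 by limma). Col1a1 (1.53 ± 0.85), Col1a2 (1.56 ± 0.82) and Pi16 (0.31 ± 0.28) of that list lay above 0 without passing, and the list's median was -0.20.

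Against brivanib alone, the combination had lower Cd2 and Thy1. Cd2 was at 0.113 ± 0.0987 against 1.23 ± 0.443 FPKM (SD, n = 3; -0.99 ± 0.21, adjusted p = 0.0289 by limma), and Thy1 at 24.9 ± 4.55 against 45.0 ± 5.93 FPKM (-0.83 ± 0.15, adjusted p = 0.0189 by limma). The 2 genes called of 10 stand beside 3.37% of all genes in either direction and 2% as lower. In gene FPKM Cd4, Cd8a, Cd8b1, Cd2, Cd5, Lck and Thy1 had no overlap, 7 of 10 lower beside 9.94%. Some of these rest on few fragments. Cd5 had 4 in combination tumour 3 and 5 in brivanib tumour 5, and Cd8b1 had 2 in combination tumour 4 and 3 in brivanib tumour 2. On coding transcripts Cd8a did overlap, as given above. The median of the 10 was -0.60, or -0.65 with Cd3d at its bound, beside 0.011. Neither Cd2 nor Thy1 was called without combination tumour 2 (adjusted p = 0.0751 for Cd2 and 0.0643 for Thy1) or combination tumour 3 (0.115 and 0.0792), and Cd2 was lost without brivanib tumour 3 (0.062) or 5 (0.0819). With all libraries set to the same FPKM total, which lowers brivanib tumour 5 for its ribosomal share and moves the median of all genes to 0.195, neither passed (Cd2 -0.87, adjusted p = 0.0986; Thy1 -0.54, adjusted p = 0.328). Pi16 (-3.02 ± 0.28, adjusted p = 0.000778), Dcn (-1.19 ± 0.19, adjusted p = 0.0111) and Itgax (-1.09 ± 0.17, adjusted p = 0.01) were lower in the combination too, and Klrb1c, the NK1.1 receptor of NK cells, was higher (1.11 ± 0.26, adjusted p = 0.0459). Of the dendritic cell list that holds Itgax, Clec9a (0.72 ± 0.25) and Zbtb46 (0.13) lay above 0 without passing, and the list's median was -0.29. The median was -1.45 for the macrophage list and -0.57 for the pan-leukocyte list, with no gene of either called. It lay above 0 for the NK and cytotoxic list (0.16) and the adipocyte list (0.51). Whether the 10 genes differed from these lists was not tested. The summed fibroblast level was 179 to 372 FPKM in the combination against 858 to 1213 with brivanib, and its part in the Thy1 result was not tested.

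Against cisplatin alone no gene of the set passed, and limma called 0 of all 21688 genes. Thy1 had the smallest p (-0.36 ± 0.15, adjusted p = 0.754), the 1 unadjusted p under 0.05 in the set beside 3.43% of all genes as lower, and voom also called 0 of the 10. Cd3d and Cd2 had the combination tumours below every cisplatin tumour, 2 of 10 beside 6.31% of all genes. In the average over brivanib against no brivanib, no gene passed beside 0.383% of all genes, and Cd2 had the smallest p (-0.32 ± 0.15, adjusted p = 0.487, the 1 unadjusted p under 0.05 beside 3.64% of all genes as lower, and 0 called by voom). The interaction, which asks whether brivanib's effect differed with cisplatin present, called none of the 10 beside 0.138% of all genes. Thy1 was nearest (-0.95 ± 0.22, adjusted p = 0.118 by limma, the 1 unadjusted p under 0.05 beside 6.79% of all genes as lower, and 0 called by voom). Pi16 of the fibroblast list passed in the average over brivanib (1.63 ± 0.20, adjusted p = 0.00969) and in the interaction (-3.40 ± 0.40, adjusted p = 0.0103).

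**Figure D3:**
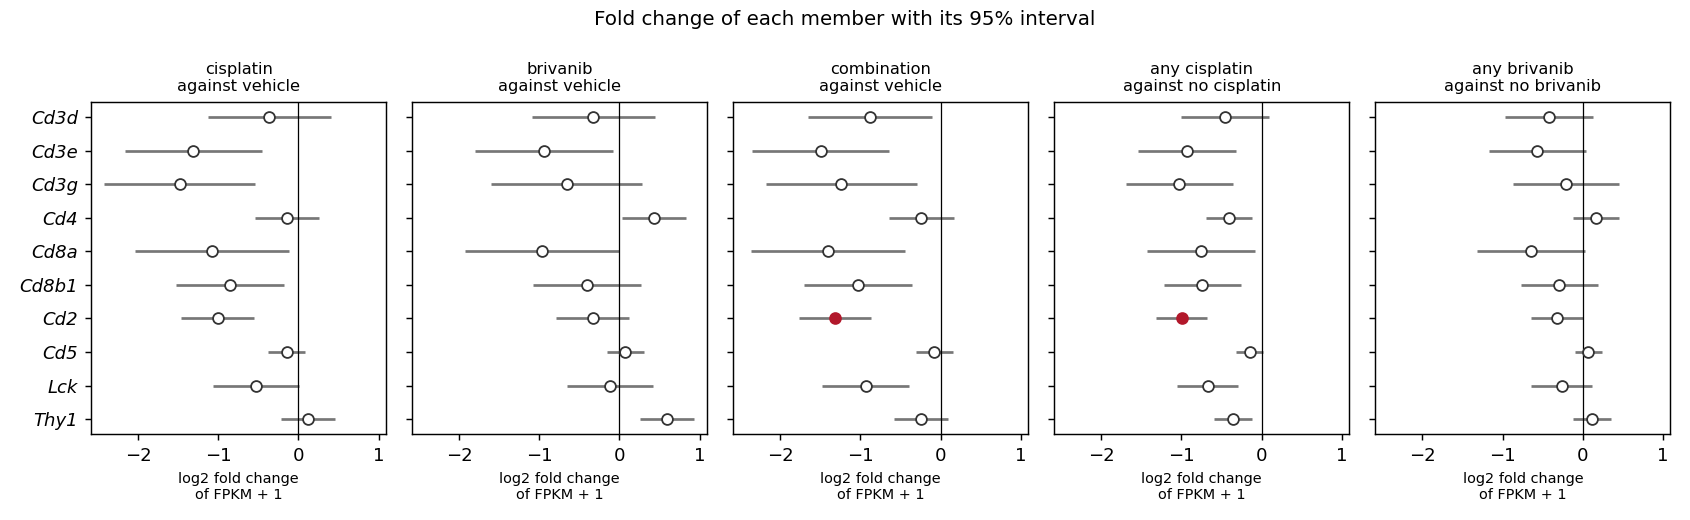
Log2 fold change of FPKM + 1 (horizontal axes) for each gene in 5 comparisons, with 95% intervals from limma. Filled points passed the adjusted p threshold of 0.05: Cd2 in combination against vehicle and in any cisplatin against no cisplatin.

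Of 30 further genes of the receptor pathway and of T cells, 27 were tested. Only Ptpn22, a phosphatase that restrains receptor signalling, passed in any of the 8 comparisons, and it rose with cisplatin (0.85 ± 0.20, adjusted p = 0.0372 by limma) from means of 8.05 with vehicle and 8.32 with brivanib to 12.7 with cisplatin and 18.4 FPKM with the combination. In that comparison 19 of the 27 fold changes lay below 0, beside 45.8% of all genes, and 7 had an unadjusted p under 0.05 as lower (Trac, Trbc2, Lat, Lcp2, Cd6, Themis and Cd226), beside 7.84%. Whether these genes differed from the 10 was not tested. The list's median fold change was -0.11 beside 0.015 for all genes, and its summed level overlapped between groups, at 54.8 to 76.2 FPKM over all tumours. Trac, the constant part of the receptor alpha chain, had means of 3.07 ± 2.19, 1.21 ± 0.846, 2.01 ± 0.826 and 0.657 ± 0.378 FPKM (SD, n = 3) with vehicle, cisplatin, brivanib and the combination, and did not pass with cisplatin (-0.84 ± 0.27, adjusted p = 0.115). Trbc2, a beta chain constant gene, had means of 5.46, 2.35, 2.85 and 1.78 FPKM in that order (-0.71 ± 0.27, adjusted p = 0.162). Trbc1 (5.47, 4.51, 4.56 and 4.42 FPKM) and Cd247, the zeta chain that NK cells also carry (9.29, 10.6, 9.05 and 7.87 FPKM), differed less between group means. Trbc1 and Trbc2 are near-identical in sequence, so the division of fragments between them is uncertain.

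NK and cytotoxic genes were far more abundant than the CD3 chains, with a summed level of 120 to 316 FPKM over all tumours and none of the 10 at 0 in any. Apart from Klrb1c no gene of that list passed in any comparison, and its summed level overlapped across all groups. Its mean log2(FPKM + 1) was 3.03, 2.87 and 2.89 in the brivanib tumours, below each vehicle tumour at 3.5, 3.08 and 3.39, and the median log2 fold change of brivanib against vehicle was -0.39. Of 5 regulatory T cell genes, Tnfrsf18, which encodes the costimulatory receptor GITR, fell with cisplatin (-0.62 ± 0.13, adjusted p = 0.0276 by limma) and Foxp3, the lineage's transcription factor, was between 0.183 and 0.713 FPKM in every tumour. Gamma-delta T cell genes summed to 0.234 to 3.26 FPKM with 2 of 5 tested and none called. B cell genes summed to at most 0.918 FPKM, and none of the 2 tested of 6 was called. Lymph node stroma and follicle genes summed to at most 0.700 FPKM except in 1 cisplatin tumour, at 3.85 FPKM, and the 1 gene tested of 5 was not called.

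**Figure D4:**
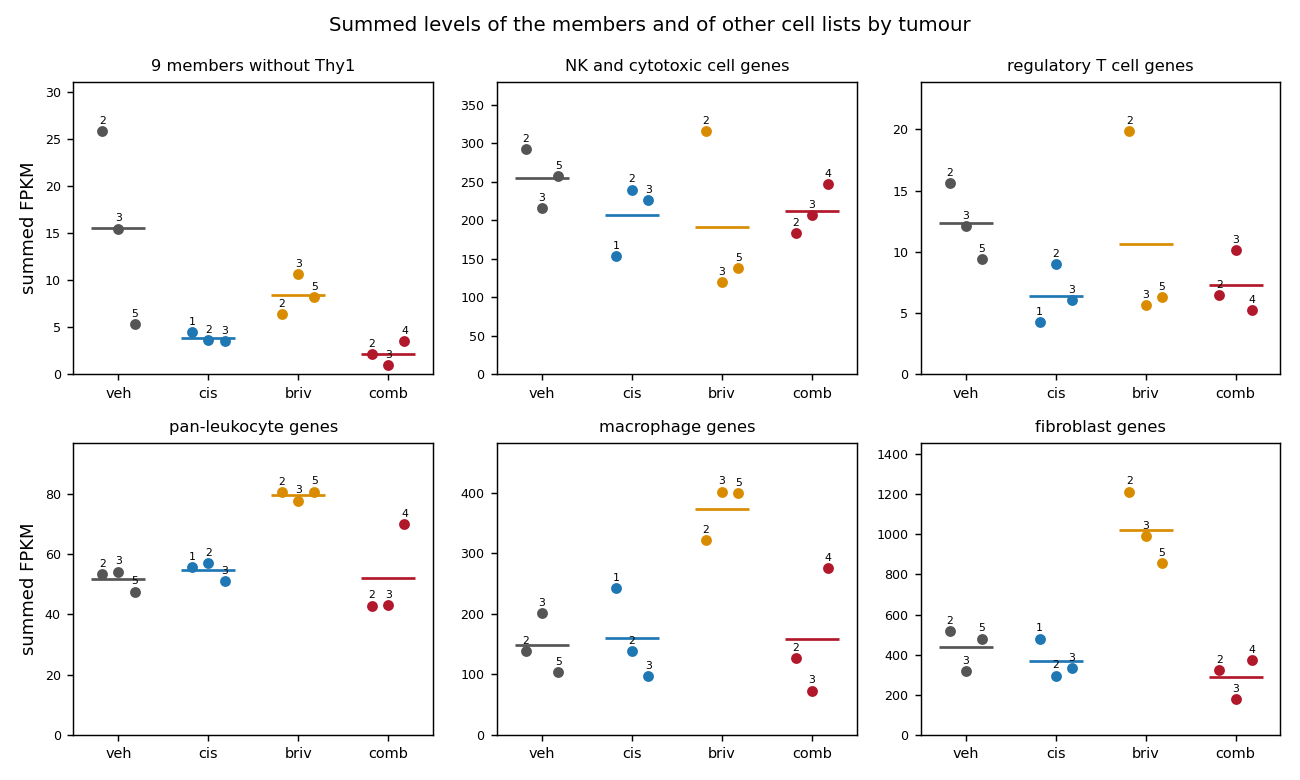
Summed FPKM (vertical axes, linear, own scale per panel) by group for the 9 genes without Thy1 and for 5 lists of other cells, with tumour numbers and lines for means of 3. Brivanib tumours are above all others for the pan-leukocyte, macrophage and fibroblast lists, while the summed NK list overlaps across groups.

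Tissue around the tumour differed between libraries. Skeletal muscle genes summed to 278 and 242 FPKM in brivanib tumours 3 and 5 and to 42.3 FPKM in combination tumour 2, and to at most 21.9 FPKM in the other 9. Adipocyte genes summed to 71.7 to 290 FPKM in the combination tumours and to 10.3 to 10.8 FPKM with vehicle, with values up to 222 FPKM with brivanib and 48.4 FPKM with cisplatin. No gene of either list, and none of 4 endothelial genes, was called in any of the 8 comparisons. With the muscle level as a covariate the any-cisplatin call for Cd2 held. With the adipocyte level as a covariate it held too, Cd4 was called as well, and the combination against vehicle had no gene called (Cd2 adjusted p = 0.235 by limma).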

How the data were processed

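Gene expression was measured in 12 tumours, 3 per group. The deposited table holds FPKM per transcript, which the authors computed with RSEM from Bowtie2 alignments of BGISEQ-500 reads, per the series' design text. The submitters' processing notes give Bowtie2 2.2.5 and RSEM 1.2.12, and also name HISAT, Bowtie and the build mm9, while the design text names mm10. Of 135276 transcripts, 134952 were found in GENCODE M21 (GRCm38), 98.48% with identical coordinates. 3 broken lines and 1 column matching no sample were left out.

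Transcript FPKM were summed per gene. Multiplying FPKM by length gave whole fragments within 0.01 for 100.0% of values up to 100 fragments, with 17160875 to 30942897 per library. The test was limma 3.58.1 in R 4.3.3 (moderated with a mean-variance trend) on log2(FPKM + 1) for 21688 genes with a mean FPKM of at least 0.1, one mean per group over all 12 libraries, 8 residual degrees of freedom, two-sided, Benjamini-Hochberg adjusted, threshold 0.05. The procedure was tested on simulated data for 1 comparison, cisplatin against vehicle. Of 50 genes changed at each size, it recovered 36 at 2-fold, 46 at 4-fold, 50 at 8-fold and 49 at 16-fold. It made 14 false calls over all genes. Recovery was not split by expression level. Every gene of the set but Thy1 had a mean of at most 1.94 FPKM, so these counts do not give the power for those genes. Replicates of a group differed by at least 27.8 times the counting noise, so each was counted as its own sample.

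The 10 genes and all lists were chosen with earlier results of these data known. Each of the 10 is described, with full statistics where it passed or, where none passed, for the one with the smallest p. Of other lists, genes past the threshold are named. Alternatives changed the pseudocount, filter, scaling, variance model, libraries, covariates and test (voom on recovered fragments). Libraries sharing a number deviated together no more than other pairs did, so they were not paired. One gene of the likeness lists is not reported here.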

Additional observations from a re-analysis of the deposited data

How the results depend on the processing

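The number of the 10 genes called was recomputed 189 times over 8 comparisons, and 166 of these counts stayed within 1.5 times the reported one. Among the fold changes given full statistics none changed direction, while Cd3d turned without vehicle tumour 2 in cisplatin against vehicle (0.04) and in brivanib against vehicle (0.08). For combination against vehicle (1 called), the count was 0 with a mean FPKM of at least 1, which leaves 3 of the 10 genes in the test, 0 with the adipocyte level as a covariate and 0 with only the groups compared in the fit. It was 0 to 3 when 1 library was left out. For combination against brivanib (2 called) it was 1 with a mean FPKM of at least 1, 0 with equal FPKM totals, 1 with the muscle level as a covariate, 0 with only the groups compared, and 0 to 2 when 1 library was left out. For any cisplatin against none (1 called) it was 2 with the adipocyte level as a covariate and 1 to 5 when 1 library was left out. For brivanib against vehicle (0 called) leaving out 1 library gave 0 to 1. The cause was not tested.

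The replicate block, with the tumour number as a block in the fit, gave 0 called in combination against vehicle, 0 in combination against brivanib and 0 in any cisplatin against none. Cd2 in the last was at -1.03 with an adjusted p of 0.118. Over 13 pairs of libraries that share a number across groups, deviations correlated at -0.133 to 0.173, with 2 above 0.1, against -0.189 to 0.188 for pairs with different numbers. These ranges do not show whether libraries of the same number share a batch, and the labels do not say what the number stands for. Across 22 alternatives, Cd2 in any cisplatin against none was called in 21.

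Few fragments limit most of these genes. Cd5 rests on 61 fragments over all libraries and Cd3d on 176. Brivanib tumour 5 has a large ribosomal share, and doses, shared hosts and the extraction kit of each tumour are not given.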

Other observations

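The genes whose level over the 12 tumours was most like that of a member were listed by Pearson's r of log2(FPKM + 1) among 11132 genes (11131 for Thy1) with a mean FPKM of at least 1, leaving out gene models with provisional names. This is a description only, since the tumours share treatment groups and the CD3 and CD8 chains are low. For Thy1 they were Pltp (0.945), Cpa3 (0.932), Il11ra1 (0.913), Mcpt4 (0.911) and Col5a1 (0.899). For Cd4 they were Igfbp5 (0.938), Thoc6 (0.922), Alg14 (0.906), Pcdhga4 (0.896) and Mgl2 (0.885). For Cd3e they included Dhx57 (0.908), Sfi1 (0.898), Zhx2 (0.893) and Slc38a9 (0.892), and for Cd8a Tia1 (0.915), Tmem65 (0.895), Zfyve16 (0.867) and Dhx57 (0.848). Dhx57 stands in both of the last lists. None of the genes named here was another of the 10 genes, of which Cd3g, Lck and Thy1 alone reach a mean of 1 FPKM.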
